A study of Mus musculus with 4 samples.

Results

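Distal accessible regions that held more transposase counts in the barcodes with suffix 2 than in those with suffix 1 were examined in single-cell ATAC-Seq (scATAC-Seq) data from old mouse long-term hematopoietic stem cells (LT-HSCs). Distal peaks were those lying more than 1000 bp from every start of a protein-coding transcript. Of 93513 peaks in the table, 76711 were distal, and 30014 of these held at least 100 counts. The 1000 distal peaks with the lowest log2 ratio of counts per 1000000 (CPM, with 1 CPM added) of suffix 1 over suffix 2 were selected, which is 3.33% of those tested. The other 46697 distal peaks fell under the count minimum and were not ranked.

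The table is named in the labels of 2 samples, CLCA3A1high and CLCA3A1low LT-HSCs of C57BL/6JRj mice aged 22 to 28 months, sorted with an antibody against the surface protein CLCA3A1. Each sample was 1 pool of 10000 cells, 2500 from each of 4 mice, gated as Lineage-negative, Sca-1-positive, c-Kit-positive, CD34-negative and CD135-negative cells, so that differences between mice cannot be seen. The labels do not say which suffix belongs to which sample. The cells are therefore called set 1 (818 cells) and set 2 (636 cells), no direction between CLCA3A1high and CLCA3A1low cells is given, and with 1 library per set no p-value was computed. The median cell held 13358.5 counts in set 1 and 12755.0 in set 2, and the sets shared 0 barcode sequences.

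Distal peaks are often enhancers, which are stretches of DNA where transcription factors bind and act on a promoter that can lie far away. In blood stem cells such regions are bound by combinations of factors, among them PU.1 (an ETS factor needed for lymphoid and myeloid development), RUNX1, the homeodomain factors MEIS1 and HOXA9, GATA2 and basic helix-loop-helix factors that read E-boxes. CTCF instead marks boundaries and loop anchors and is largely shared between cell types. An enhancer can be open in a stem cell before the gene it serves is expressed.

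The peaks were chosen by the ratio itself, so the following values describe the choice. Members had log2 ratios of -4.11 to -1.25 with a median of -1.56. A total of 176 lay below -2 and 12 below -3. They held 51683 of the counts of set 1, or 0.396% (95% Clopper-Pearson interval 0.393 to 0.399), and 141429 of those of set 2, or 1.44% (1.43 to 1.45). All intervals cover counting error only. They are too narrow, because 88.7% of the nonzero values were even, as a fragment usually brings a pair of cut sites. When counts were halved, the upper bound of the ratio still lay below 0 for 1000 of 1000 members, the highest bound being -0.65. Single members were open in few cells. The median member had counts in 20 cells of set 1 (2.44%) and in 52 cells of set 2 (8.18%), and its level was 3.06 CPM in set 1 and 11.8 CPM in set 2. Among all distal peaks tested, 1797 (5.99%) had a ratio below -1 and 1675 (5.58%) a ratio above 1, so set 2 was not alone in having such peaks.

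**Figure D1:**
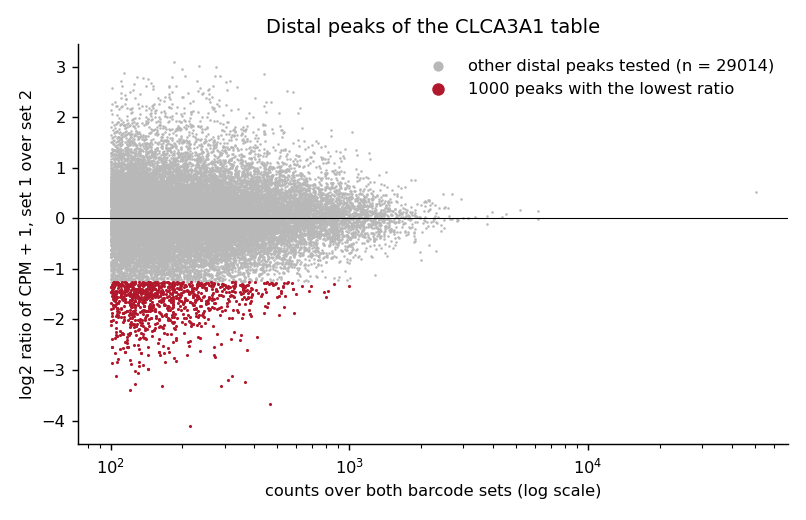
Log2 ratio of CPM + 1 of set 1 over set 2 (y axis) against counts over both sets (x axis, log scale) for the 30014 distal peaks tested, 1 point per peak. The 1000 members (red) lie between -4.11 and -1.25 and hold 100 to 994 counts, while all distal peaks tested hold up to 50614.

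The last peaks inside the threshold were in introns of Tbc1d16 (42 counts in set 1 and 89 in set 2), Ccdc62 (32 and 71) and Kalrn (32 and 71), all with a ratio of -1.25. Just outside, peaks nearest to Slc14a2 (56 and 114 counts) and Ldb1 (51 and 105) also had a ratio of -1.25. The threshold thus cuts through a continuous range.

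The sequences below are the central 300 bp of 6 members, given on the plus strand of GRCm38.p6 as RefSeq has it. The first 3 are the lowest-ratio member, the runner-up and the lowest member of Runx3, which are described below. The last 3 are the lowest-ratio members in which words of PU.1, RUNX and MEIS all stood outside masked repeats, and they were picked for these words. Capitals mark GAGGAAGT (PU.1), TGTGGT (RUNX), TGACAG (MEIS) and CAGCTG (E-box) on either strand. Only the E-box reads the same on both strands, and the others appear as their reverse complement where they lie on the minus strand.
Emc3 intron, chr6:113517714-113518013: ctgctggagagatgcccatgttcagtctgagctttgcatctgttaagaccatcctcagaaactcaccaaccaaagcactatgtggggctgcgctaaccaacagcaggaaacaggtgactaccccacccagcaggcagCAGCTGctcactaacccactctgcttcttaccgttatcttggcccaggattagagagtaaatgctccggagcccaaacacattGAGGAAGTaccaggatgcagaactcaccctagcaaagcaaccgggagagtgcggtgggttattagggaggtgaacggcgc
Panx1 intron, chr9:15018145-15018444: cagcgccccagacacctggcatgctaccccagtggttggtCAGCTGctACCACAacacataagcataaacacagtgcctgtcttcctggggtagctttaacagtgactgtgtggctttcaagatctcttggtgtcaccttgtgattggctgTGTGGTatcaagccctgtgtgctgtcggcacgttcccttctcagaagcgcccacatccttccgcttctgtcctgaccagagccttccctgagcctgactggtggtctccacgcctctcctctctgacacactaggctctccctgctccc
Runx3, intergenic, chr4:135192876-135193175: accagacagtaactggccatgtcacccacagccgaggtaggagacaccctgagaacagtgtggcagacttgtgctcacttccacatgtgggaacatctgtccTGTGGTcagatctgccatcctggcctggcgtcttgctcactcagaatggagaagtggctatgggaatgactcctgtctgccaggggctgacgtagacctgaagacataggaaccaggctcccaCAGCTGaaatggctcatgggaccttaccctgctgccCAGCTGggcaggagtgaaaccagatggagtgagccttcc
Gfod1 intron, chr13:43250646-43250945: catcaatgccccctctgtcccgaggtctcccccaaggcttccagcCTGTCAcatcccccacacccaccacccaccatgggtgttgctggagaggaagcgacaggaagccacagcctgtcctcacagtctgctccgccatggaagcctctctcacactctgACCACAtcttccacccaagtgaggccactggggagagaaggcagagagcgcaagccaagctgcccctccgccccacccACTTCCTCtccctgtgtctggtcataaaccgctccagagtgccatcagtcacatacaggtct
Intron of 2900011O08Rik, nearest start Marf1, chr16:14088249-14088548: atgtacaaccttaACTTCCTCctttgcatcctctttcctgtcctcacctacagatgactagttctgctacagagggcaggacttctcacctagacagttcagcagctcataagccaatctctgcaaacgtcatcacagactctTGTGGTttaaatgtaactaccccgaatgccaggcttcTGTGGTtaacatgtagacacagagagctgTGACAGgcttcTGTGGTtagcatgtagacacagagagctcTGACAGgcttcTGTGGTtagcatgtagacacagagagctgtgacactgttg
Serpina12, intergenic, chr12:104061853-104062152: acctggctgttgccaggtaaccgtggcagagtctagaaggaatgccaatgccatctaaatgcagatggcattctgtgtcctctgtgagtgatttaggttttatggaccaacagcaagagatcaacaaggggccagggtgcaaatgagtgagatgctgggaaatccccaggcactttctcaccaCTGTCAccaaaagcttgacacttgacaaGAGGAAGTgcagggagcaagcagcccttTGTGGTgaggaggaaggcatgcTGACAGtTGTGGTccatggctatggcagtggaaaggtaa
The Emc3 member holds 1 E-box word and 1 PU.1 word, and the Panx1 member 1 E-box and 2 RUNX words. In the Runx3 member 1 RUNX word and 2 E-box words were found. The member near Marf1 carries 4 RUNX and 2 MEIS words in a short repeated unit. In the Serpina12 member 5 words fall in the right part of the window, from base 184 to base 274, with a MEIS and a RUNX word 1 base apart.

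The sequence of the members, which the ratio did not use, differed from that of other distal peaks. A RUNX word was present in the central 300 bp of 44.7% of members, against 30.2% of all distal peaks tested and 30.9% of the 1000 peaks with the highest ratio. The MEIS word was found in 35.9% of members, 22.2% of all distal peaks and 18.3% of the highest. PU.1 words were in 14.2% of members, 7.39% of all and 5.2% of the highest, so members held them about as often as the next 1000 peaks in the ranking (14.9%). For the E-box CAGCTG the shares were 27.4%, 20.5% and 17.7%. These shares fell along the ranking. Between bin 1 (lowest ratios) and bin 5 of 10 equal bins the RUNX word went from 40.5% to 27.9% of peaks, the MEIS word from 30.7% to 21.0%, the PU.1 word from 14.1% to 6.70%, and from there on each changed little.

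Other words were as frequent in members as elsewhere, or rarer. The AP-1 word TGANTCA stood in 12.8% of members and 12.9% of all distal peaks. The GATA word AGATAA was in 12.6% of members and 14.8% of all distal peaks, whereas 30.5% of the highest peaks held it. The TEAD word GGAATG was in 11.6% of members, 14.6% of all distal peaks and 19.4% of the highest. CTCF words were found in 2 members (0.200%) against 5.35% of all distal peaks, and the highest peaks held almost as few (0.5%). The other ETS word CCGGAAGT was rare in members (0.800%) and in all distal peaks (0.793%), so of the 2 ETS words that of PU.1 alone was more frequent in members. C/EBP (TTGCNNAA), STAT (TTCNNNGAA) and IRF words were in 10.9%, 8% and 4.10% of members and in 12.4%, 9.53% and 5.96% of all distal peaks. A word is a match of letters and does not show that a factor was bound.

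Several checks bear on these shares. Read backwards without complement, the PU.1 word stood in 2.90% of members and 2.21% of all distal peaks, and the RUNX word in 20.4% and 18.5%. The backward MEIS word was also more frequent in members (22.3% against 14.1%), so the MEIS excess was not particular to the forward letters. Forward and backward words overlap within TGACAGT. Without windows holding TGACAGT, the MEIS word was left in 27.7% of members and 17.4% of all distal peaks and its backward form in 14.1% and 9.32%, so both were still more frequent in members. GC content differed little, with a median of 50.3% in members and 49.3% in all distal peaks. Within windows of 45 to 55% GC the PU.1 word stood in 15.8% of 658 members and 8.08% of 17210 distal peaks, and the RUNX word in 44.8% and 31.0%. Of the PU.1 words in members, 20.4% stood only in bases masked as repeats, as did 20.4% of those in all distal peaks, and outside repeats 11.3% of members and 5.88% of all distal peaks kept one. PU.1 and RUNX words of members lay nearer the peak center than those of all distal peaks, and PU.1 words of the highest peaks did so too. Of the members with a PU.1 word 52.8% had one within 50 bp of the center, against 44.0% of all distal peaks with the word and 51.9% of the highest. The shares were 50.3%, 44.0% and 42.7% for RUNX, 41.2%, 37.6% and 33.9% for MEIS, and 39.4%, 38.8% and 40.1% for the E-box.

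Most pairs of words were about as frequent as the shares of the single words give when multiplied, and MEIS with PU.1 (6.30%, product 5.10%) or with the E-box (11.7%, product 9.84%) was above it. Over all distal peaks MEIS with the E-box was also above its product (5.19%, product 4.54%), and MEIS with PU.1 was close to it (1.74%, product 1.64%). Both a RUNX and a MEIS word were in 165 members (16.5%, product 16.0%), against 6.99% of all distal peaks, and both a PU.1 and a RUNX word in 64 (6.40%, product 6.35%), against 2.46%. PU.1, RUNX and MEIS words were together in 27 members (2.70%) and in 179 of all distal peaks (0.596%). None of the 4 words was in 237 members (23.7%, product 22.1%), while 40.8% of all distal peaks lacked them. Within the members the words went with little else: the 142 members with a PU.1 word had a median ratio of -1.63 and the 858 without it -1.55.

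**Figure D2:**
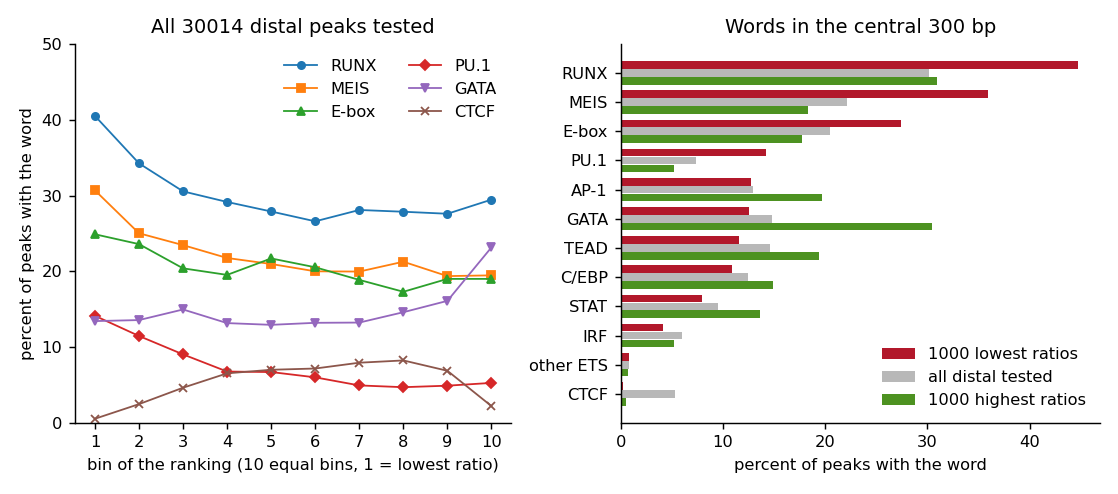
Left, percent of peaks with a word in the central 300 bp (y axis) by bin of the ranking of all distal peaks tested (x axis, 10 equal bins, 1 = lowest ratio), 1 line per word. Right, the same percent for 12 words in the members (red), all distal peaks tested (gray) and the 1000 peaks with the highest ratio (green), in which RUNX stands at 44.7%, 30.2% and 30.9% and GATA at 12.6%, 14.8% and 30.5%.

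Members lay slightly more often in introns than other distal peaks. The center of 533 members (53.3%) was intronic, against 48.1% of all distal peaks tested, and 360 (36.0%) were intergenic, against 39.5%. A further 65 lay in non-coding genes, 24 in coding exons and 18 in UTRs. The median distance to the nearest start of a protein-coding transcript was 22282.5 bp, against 21840.0 bp for all distal peaks and 35984.0 bp for the highest ratios. A distance over 100000 bp was found for 139 members (13.9%), against 13.4% of all distal peaks and 24.2% of the highest. Members and the highest peaks both had a median width of 752.0 bp, narrower than the 858.0 bp of all distal peaks. On autosomes 2.23% (chromosome 14) to 4.07% (chromosome 1) of tested peaks were members. On chromosome X 3 of 415 were members (0.723%), while 14 (3.37%) were among the highest.

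Along the genome the members were mostly scattered. Of the 880 members with a tested distal peak within 50000 bp, 59 (6.70%) had another member as the nearest, against 3.33% members among all peaks tested. The share was 3.19% for the 1000 peaks around the median ratio and 8.34% for the highest. Over these 880 nearest peaks the median ratio was -0.11, and 57.7% lay below 0, against a median of 0.05 and 46.5% below 0 over all distal peaks. For the nearest peaks of those around the median ratio the values were 0.03 and 48.1%.

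The members had 893 nearest genes, of which 801 had 1 member, 83 had 2 and 9 had more. The nearest start does not show which gene a peak acts on. Promoters of these genes were nearly even between the sets, with a median log2 ratio of -0.03 over 916 promoter peaks, against 0.01 over all 14298 promoter peaks. A ratio below -1 was found for 16 of the 916 (1.75%), against 127 of all 14298 (0.888%).

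The lowest-ratio member was a peak in an intron of Emc3, which encodes a subunit of the endoplasmic reticulum membrane complex. It held 4 counts in 1 cell of set 1 and 211 counts in 77 cells of set 2. The ratio was -4.11, and without the added CPM its 95% interval ran from -8.02 to -4.75. An intron of Panx1, the gene of a plasma membrane channel, followed with 33 counts in 16 cells of set 1 and 430 counts in 139 cells of set 2 (ratio -3.67). Set 1 was thus almost empty at the first peak and low but not empty at the second.

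The peak upstream of Brd7 (a subunit of the PBAF chromatin remodeler) held 3 and 118 counts in sets 1 and 2, and that downstream of Ptger2 (a receptor of prostaglandin E2) 9 and 155. In an intron of Galnt6 (an enzyme of mucin-type O-glycosylation) 24 and 266 counts were found, and in an intron of Ampd3 (an AMP deaminase) 35 and 331. The ratios of these 4 peaks ran from -3.40 to -3.24. Peaks near Zfp658 (29 and 282 counts), Bcl2l11 (33 and 290) and Slc27a3 (4 and 101) had ratios of -3.21, -3.11 and -3.11. Bcl2l11 encodes the pro-apoptotic protein BIM, and this peak lay 168963 bp downstream of its start. A second member near Zfp658 (11 and 125 counts) lay beside the first.

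The members with most counts had weaker ratios. The most accessible one, 16113 bp upstream of Srgn (serglycin, the proteoglycan of blood cell granules), held 338 counts in 137 cells of set 1 (16.7%) and 656 counts in 216 cells of set 2 (34.0%), and its ratio was -1.33. Introns of Rhof (a small GTPase) and Sipa1l1 (a GTPase-activating protein for Rap) held 260 and 550, and 248 and 532 counts. A peak 5735 bp upstream of Ifnar2, a chain of the type I interferon receptor, held 244 and 556 counts (ratio -1.55). The intron of Piezo1, a mechanosensitive ion channel, had 149 and 437 counts and the lowest ratio of these 10 peaks (-1.87). The others lay near Gm17334 (299 and 567 counts), Ubash3a (234 and 459), Jakmip1 (216 and 459), Arhgap25 (213 and 418) and Fbxo40 (186 and 413).

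Chsy1 and Runx3 were each the nearest gene of 5 members. Chsy1 encodes a chondroitin sulfate synthase. Its members lay 15683 to 123859 bp downstream of the start, 2 of them in introns of the next gene Lrrk1, with ratios of -1.67 to -1.41, and 10 of 10 tested distal peaks of the locus had a ratio below 0. The Chsy1 promoter held 34.3 CPM in set 1 and 42.0 CPM in set 2 (ratio -0.29).

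Runx3 encodes a RUNX factor of T and NK cells. Its lowest member, 40530 bp downstream of the start, held 5 counts in 3 cells of set 1 and 122 counts in 51 cells of set 2 (ratio -3.28). The others held 16 and 96 (ratio -2.28), 64 and 157 (-1.52), 119 and 235 (-1.30) and 35 and 77 counts (-1.26). Of 17 tested distal peaks at Runx3, 15 had a ratio below 0, whereas its 2 promoter peaks together held 92.3 and 98.6 CPM (ratio -0.09).

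Maf, a basic leucine zipper factor, had 4 members 151436 to 517134 bp downstream of its start. The lowest held 18 and 143 counts (ratio -2.71), and the peaks between the members had ratios from -0.94 to -0.02. Sulf2, which encodes a heparan sulfate endosulfatase, also had 4 members, with ratios of -1.89 to -1.28. Genes with 3 members were Clnk (an adaptor of immune receptor signaling), Fbxo11 (a subunit of a ubiquitin ligase), Gm5426, Cxcr4 and Ptpre (a tyrosine phosphatase). For Fbxo11, 3 of 4 tested distal peaks were members. The number of tested distal peaks differed between genes, so the counts of members per gene are not shares. Cxcr4 encodes the receptor of CXCL12, which holds stem cells in the marrow. Its members stood 112994, 154790 and 174790 bp upstream and held 36 and 118, 47 and 105, and 33 and 91 counts in sets 1 and 2. The Cxcr4 promoter was nearly even (60.8 and 66.8 CPM).

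**Figure D3:**
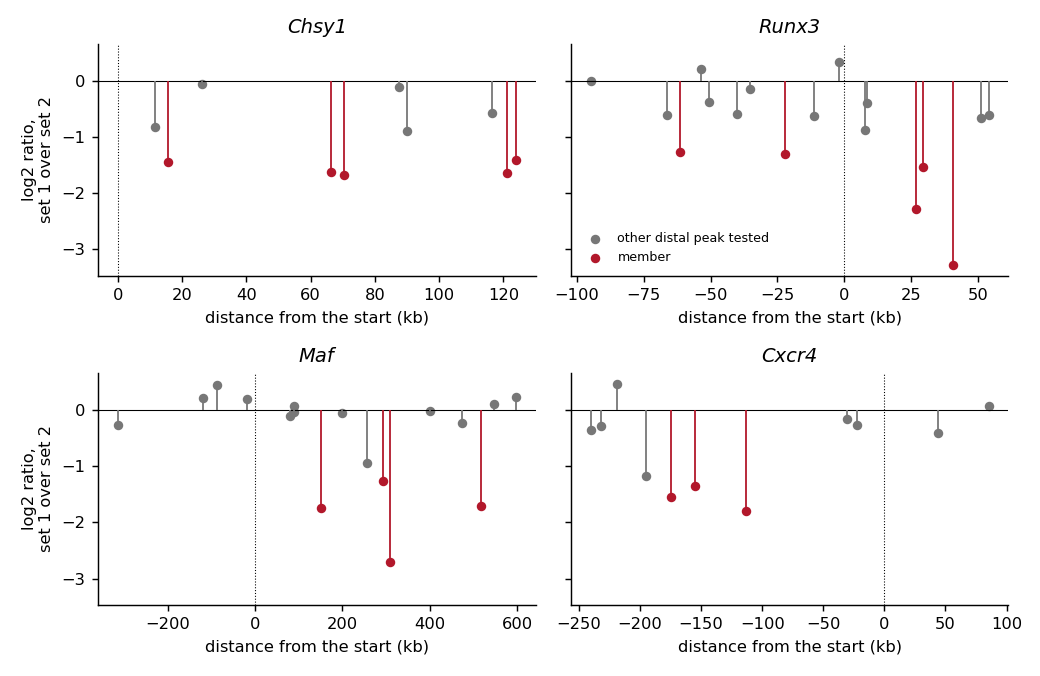
Log2 ratio of set 1 over set 2 (y axis) of each tested distal peak against its distance from the start of the nearest gene (x axis, kb, positive in the direction of transcription) at 4 genes, with members in red. Members stand among peaks of weaker ratio, for example at Maf, where members range from -2.71 to -1.27 and the peaks between them from -0.94 to -0.02. At Cxcr4 the members follow one another without another tested peak between them.

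Gene lists were then read against the 3.33% of tested distal peaks that were members. Of 28 tested distal peaks nearest to 12 genes of multipotent and lymphoid progenitors, 6 were members (21.4%). The Ccr9 member (a chemokine receptor of thymus-seeding cells) held 11 and 104 counts, the Dntt member (terminal transferase) 24 and 135, the Flt3 member (receptor of the FLT3 ligand) 115 and 274, and the Cd34 member 44 and 109. Satb1 (54 and 120 counts) and Notch1 (157 and 304) had 1 each. The Flt3 and Cd34 proteins are CD135 and CD34, which the sort gate excluded on the surface. Myeloid genes had 4 members of 26 (15.4%), at Csf1r (86 and 252 counts), Cx3cr1 (87 and 208), Mpo (34 and 83) and Cebpa (37 and 85), and within 50000 bp of the gene bodies 5 of 63 (7.94%). Csf1r and Cx3cr1 are receptors of macrophage lineage cells, Mpo encodes myeloperoxidase and Cebpa the factor C/EBP-alpha.

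Adhesion and homing genes had 10 members of 81 (12.3%), at Cxcr4, Cd44, Itga6, Itgb2, Cd47 and Itga2. The Cd44 members (a hyaluronan receptor) held 39 and 142, and 149 and 348 counts. The Itga6 members (the laminin-binding integrin chain) held 66 and 165, and 35 and 95. T and NK cell genes had 4 of 36 (11.1%), 1 each at Tcf7 (25 and 95 counts), Gata3 (30 and 90), Nkg7 (27 and 79) and Zap70 (57 and 124). PU.1 target receptors had 3 of 40 (7.50%), the members at Csf1r, Flt3 and Cd34 already given.

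For 36 hematopoietic transcription factors the share was near the background, 9 of 305 (2.95%), with 5 at Runx3 and 1 each at Zeb2 (14 and 91 counts), Cebpb (76 and 215), Mef2c (36 and 84) and Cebpa. The same held for cell cycle genes, with 2 of 55 (3.64%), at the D cyclins Ccnd1 (75 and 184 counts) and Ccnd2 (30 and 73). Stem cell genes had 1 of 101 (0.990%), at Hlf (26 and 78 counts), a factor of stem cell identity, and 6 of these peaks were among the highest ratios. Erythroid genes had 1 of 17 (5.88%). Megakaryocyte and platelet genes had 0 of 43, genes rising in old stem cells 0 of 46, Hippo pathway and TEAD genes 0 of 52, antigen presentation and interferon genes 0 of 25 and B cell genes 0 of 17.

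The marker loci as a whole (gene body and 5000 bp upstream) were compared between the sets, since the sort could hold cells past the LT-HSC stage. Member peaks inside a locus were kept in these sums, so part of a lower value in set 1 follows from the choice of members. The Flt3 locus includes its member (8.81 and 27.9 CPM in sets 1 and 2), and the Cd34 locus its own (3.37 and 11.1 CPM). Progenitor loci summed to 507.8 CPM in set 1 and 650.9 CPM in set 2, with 9 of 12 loci lower in set 1, and single loci ranged up to 137.4 and 158.7 CPM. Myeloid loci summed to 585.5 and 632.0 CPM, with 11 of 15 lower in set 1. Stem cell loci summed to 1948 and 1659 CPM, with 2 of 15 lower in set 1. B cell loci summed to 225.0 and 234.3 CPM, with 8 of 9 lower in set 1 and a median log2 ratio of -0.32, whereas Ebf1, the one most accessible in set 1, went the other way (89.5 and 66.6 CPM). T and NK cell loci summed to 367.9 and 373.6 CPM (4 of 9 lower in set 1), erythroid loci to 365.6 and 339.9 CPM (4 of 10) and megakaryocyte and platelet loci to 904.4 and 824.8 CPM (3 of 10). Within the T and NK list, Zap70 (0.54 and 7.13 CPM) and Nkg7 (1.07 and 8.96 CPM), with 1 peak each, were much lower in set 1. Gata3, the most accessible of that list, was higher there (183.2 and 158.7 CPM). The sums of the myeloid and B cell loci differed by only -0.11 and -0.06 on the log2 scale. Of the loci with a peak in these 7 lists Fcgr3 was at 0 in both sets, Il7r and Cd79a were at 0 in set 1 and S100a9 in set 2, while Flt3 (76.1 and 144.3 CPM) and Cd34 (20.2 and 39.4 CPM) were open in both and higher in set 2. Slamf1, the gene of the stem cell surface protein CD150, was also open in both (64.7 and 35.2 CPM) and higher in set 1. The part of other cells in the members' ratio was not tested.

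Whether the members varied together was measured across the cells of each set. Cells were thinned to 4899 counts, which left 749 cells of set 1 and 560 of set 2. Members took a median of 0.903% of a cell's distal counts in set 1 (5th to 95th percentile 0.391 to 2.34) and 3.47% in set 2 (0.924 to 7.02). The members were chosen by their ratio between these same cells, so this gap and the small overlap of the sets follow from the choice. At or below the median of set 1 lay 25 of 560 cells of set 2 (4.46%), and 8 of 749 cells of set 1 (1.07%) lay at or above the median of set 2. The SD between cells was 2.83 times that of counting in set 1 and 4.30 times in set 2, against 1.27 and 1.36 times for the 1000 peaks around the median ratio. The next 1000 peaks of the ranking (2.30 and 2.83 times) and the 1000 highest (2.57 and 3.82 times) also exceeded counting. The larger counts in set 2, a median of 63 member counts per thinned cell against 17, make its shares more precise.

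**Figure D4:**
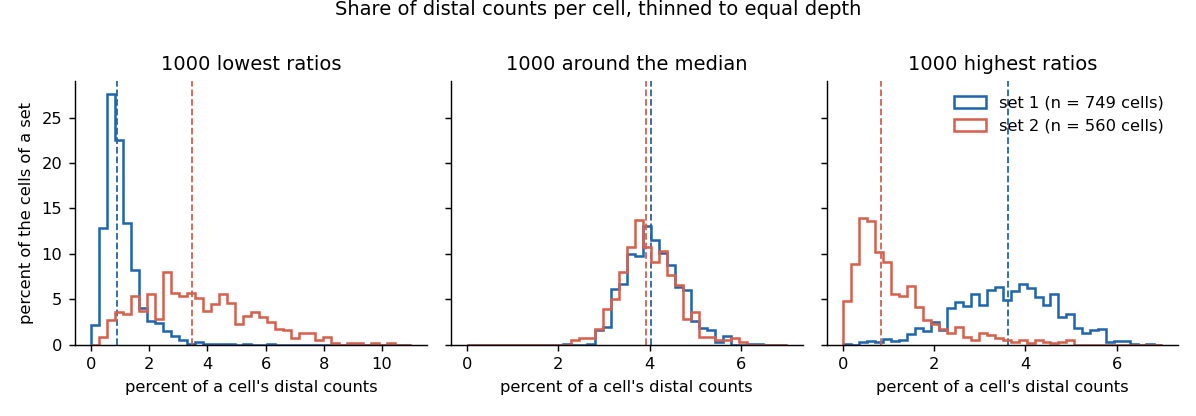
Percent of cells (y axis) by the percent of a cell's distal counts (x axis) in the members, the 1000 peaks around the median ratio and the 1000 highest ratios, after thinning to 4899 counts. Set 1 is in blue, set 2 in red, and dashed lines mark medians, which for the members are 0.903% and 3.47%. The gap between the sets in the members and in the highest ratios follows from the choice of these peaks. In set 2 the members' share spreads over a broad range with no gap.

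Members on separate chromosomes rose and fell in the same cells. The share of 543 members on odd chromosomes correlated with that of 457 on even chromosomes and X with Spearman's rho = 0.84 across the 560 cells of set 2 and 0.46 across the 749 cells of set 1. Peaks around the median ratio gave -0.02 and -0.03. The next 1000 peaks of the ranking gave 0.65 in set 2 and 0.46 in set 1, and the 1000 highest 0.75 and 0.58. All cells of a set share 1 library, and groups of peaks compete for the fixed number of counts, so these values are descriptions. The 186 cells of set 2 with the highest odd-chromosome shares had a median of 2.58% of distal counts in the even-chromosome members, against 0.869% in the 187 cells with the lowest. In set 1 the 249 highest and the 250 lowest cells had 0.634% and 0.365%.

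The peaks with the highest ratio went the other way within each set. Their share on even chromosomes and X correlated with that of members on odd chromosomes with rho = -0.72 in set 2 and -0.42 in set 1, while the peaks around the median gave -0.15 and -0.04. Between the 187 cells of set 2 with the lowest and the 186 with the highest odd-chromosome share of members, their median share on even chromosomes fell from 0.864% to 0.252% of distal counts. Members and highest peaks thus moved in opposite directions among the cells of each set.

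**Figure D5:**
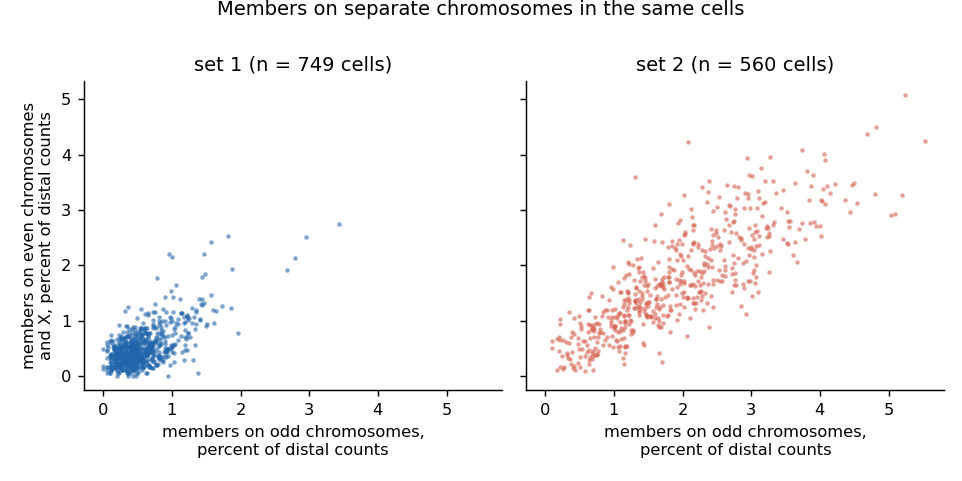
Share of a cell's distal counts in members on even chromosomes and X (y axis, percent) against that in members on odd chromosomes (x axis, percent), 1 point per thinned cell, with set 1 left and set 2 right. Shares rise together with rho = 0.46 across 749 cells of set 1 and 0.84 across 560 cells of set 2.

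This covariation was spread over most members, and the next peaks of the ranking shared it. Taken singly, 964 of 1000 members (96.4%) correlated positively with the members of the other chromosome group in set 2, with a median rho of 0.10, and 817 of 996 (82.0%) in set 1, with a median of 0.04. Of the next 1000 peaks 91.3% and 79.4% did so, and of the peaks around the median ratio 48.4% and 49.0%. Each single correlation was weak. A member had counts in few cells, and the part of this sparsity was not tested. Panx1 had the highest correlation in set 2 (0.37), and the 3 lowest-ratio members Emc3, Panx1 and Brd7 gave 0.17, 0.37 and 0.23 there. The Runx3 members ranged from 0.06 to 0.23, the Flt3 and Cd34 members gave 0.17 and 0.19, and Cxcr4 gave 0.11, 0.12 and -0.04. Members with a PU.1 word had a median of 0.09 in set 2 and those without it 0.10, and for RUNX the medians were 0.11 and 0.10.

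Cell depth and promoter share moved with the members. Across cells of set 2 the members' share correlated with the counts of the cell before thinning (rho = 0.29), while in set 1 it did not rise with depth (rho = -0.06). The median depth was 11278 counts in the 187 cells of set 2 with the lowest shares and 17482.5 in the 186 with the highest. The share of counts in promoter peaks fell as the members' share rose (rho = -0.32 in set 2 and -0.33 in set 1). The part of depth in the covariation was not tested beyond thinning. Of the marker loci, with member peaks left out, those of stem cells were lower in cells with more member counts (rho = -0.24 in set 2 and -0.20 in set 1), and those of genes rising in old stem cells gave -0.17 and -0.08. Progenitor loci gave 0.18 and -0.01 and myeloid loci 0.13 and 0.08. Erythroid, megakaryocyte, B cell and T and NK cell loci lay between -0.01 and 0.06 in both sets, at a median of 1 to 4 counts per thinned cell.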

How the data were processed

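The authors ran Cell Ranger ATAC 1.2.0 on mm10/GRCm38 (tool and builds per the labels' processing notes) and deposited 2 tables of counts of cut sites per peak and cell barcode. Normalization of the deposited counts was not stated. The first table was used, and the second, whose rows carry no peak names, was not. The table holds 22871046 counts, 13050952 in set 1 and 9820094 in set 2. Peaks were annotated with GENCODE M21, with starts taken as 0-based and printed 1-based.

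CPM used set totals. Locations are those of the peak center. Words were searched on both strands. Measures per cell used an equal number of counts drawn from each cell without replacement, that of the cell at the 10th percentile of depth, and 69 cells of set 1 and 76 of set 2 lay below it. No doublet caller was run. The 57 cells with over 3 times the median counts were kept in the main values. The calculation of ratios and correlations was checked on simulated counts without paired cut sites or differences in cell depth. The check does not cover those features of the data.

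The members and lists were chosen with earlier results of these data known. Named were the 10 members with the lowest ratio, the 10 with most counts, the 10 genes with most members, the 3 peaks on either side of the threshold, and up to 4 genes a list. Satb1, Notch1, Cd47 and Itga2, and the sequences shown for 3 words, fall outside this rule and were named after their values were seen. The search outside repeats was also added later. Of the peaks this rule names, 2 are not reported here. Python 3.11.15, NumPy 2.4.6, SciPy 1.17.1 and pandas 2.3.3 were used.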

Additional observations from a re-analysis of the deposited data

How the results depend on the processing

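No paired analysis was possible because no barcode set can be matched to a sample and the result comes from no test. Of the 1000 members, 874 stayed among the 1000 lowest ratios with a peak counted at most once per cell, 951 with 0.1 CPM added, 846 with 5 CPM, 999 with median-of-ratios size factors, 891 without cells over 3 times the median counts and 699 in thinned cells. With a 5000 bp promoter window 875 were still distal and, since peaks are only removed, these stay by construction. A minimum of 50 counts kept 463, since 48224 peaks then entered the ranking. With a minimum of 200 counts 313 members were tested and, again by construction, stay. The members' median ratio ranged from -1.79 to -1.05 over the scalings. Over whole peaks, whose widths differ, the PU.1 word was in 24.4% of members (15.5% of all distal peaks), RUNX in 70.5% (60.5%), MEIS in 62.1% (52.9%) and the E-box in 50.5% (47.3%). With a minimum of 200 counts the 1000 lowest peaks held the PU.1 word in 11.6% (7.27% of all distal peaks then tested), RUNX in 41% (29.96%) and MEIS in 30.5% (22.05%). Outside masked repeats, a choice made after seeing the data, the PU.1 word was in 11.3% of members (5.88% of all distal peaks) and RUNX in 41.5% (26.9%). Without thinning the odd and even chromosome correlation was 0.58 in set 1 and 0.89 in set 2. The reason for this rise was not tested. Counting each peak once per cell, the share of all counts, leaving out the deepest cells and splitting at chromosome 7 left the correlation within its interval. Shares in introns and of neighboring members also stayed within theirs. Counting peaks within 50000 bp of the gene body gave members at 5 of 63 peaks of myeloid genes (7.94%), 8 of 49 of progenitor genes (16.3%), 10 of 78 of adhesion genes (12.8%), 2 of 67 of megakaryocyte genes (2.99%), 4 of 81 of cell cycle genes (4.94%), 4 of 76 of antigen presentation genes (5.26%), 1 of 32 of B cell genes (3.13%) and 1 of 87 of genes rising in old stem cells (1.15%).

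Most distal peaks were too sparse to rank, and a member under 20 counts in set 1 (69 of 1000) has a ratio set largely by the added CPM. With 1 library per set, differences between the samples, mice and libraries cannot be told apart.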
